A study of Mus musculus with 14 samples.

Results

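Potassium channel genes of the mouse mammary epithelium were examined, with Kcne3 set beside the channels that its protein can modulate. The genes were chosen by name, as protein-coding genes whose symbol is Kcn followed by letters and an optional number. Of the 16124 genes in the table, 51 met this rule. The Kcn genes as a group, and Kcne3 in particular, were selected on earlier results of these data, in which Kcne3 differed between the genotypes. Kcne3 is therefore described here without a test.

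RNA was sequenced from mammary gland epithelial cells of 7 wild-type (WT) and 7 Usp22 OE/OE mice, 1 library per mouse, at an age of 3.5 months. OE/OE mice were homozygous for a Usp22 cDNA with FLAG and MYC tags, inserted at ROSA26 and driven by the CAGGS promoter. A floxed STOP cassette before it had been removed by Zp3-Cre, which acts in the oocyte, so the transgene was on in all tissues and not in the epithelium alone, and the WT mice were littermates. Usp22 is the ubiquitin protease of the SAGA coactivator complex. Each pair of littermates carries 1 number (1, 3, 4, 5, 6, 7 or 8), and the cells came from organoids, which had been separated from the stroma by collagenase digestion and short spins.

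Potassium channels set the resting voltage of a cell and let potassium leave it. In secretory epithelia this exit provides the electrical driving force for chloride secretion and recycles the potassium that the sodium pump brings in. The pore is formed by voltage-gated (Kv), calcium- or sodium-activated, inward-rectifier or two-pore subunits, and accessory subunits change how a pore opens. Kcne3 encodes a single-span accessory subunit that holds the Kcnq1 pore open at rest in colon and airway epithelium.

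Kcne3 lies on the plus strand of chromosome 7 (ENSMUSG00000035165.14, chr7:100176502-100184869, GRCm38) and has 1.78 kb of exon. RefSeq gives 2 start sites for it in the promoter table used here, and the 250 bases before each are printed because the gene has the widest genotype difference among the 51. The windows of Kcnk5 and Kcnk1 follow as those of the members with the highest levels. Capitals mark GC boxes (GGGCGG) and CCAAT boxes (CCAAT) on either strand, and each line is written 5′ to 3′ on the strand of the gene. The windows are chr7:100176420-100176669 (plus strand), chr7:100178433-100178682 (plus), chr14:20181783-20182032 (minus) and chr8:125994852-125995101 (plus), in the order printed. Gene coordinates are from GENCODE M21, whose starts differ from those of RefSeq. The first Kcne3 window and the Kcnk5 window (gene end 20181809) overlap the gene as GENCODE places it. The second Kcne3 window lies wholly inside the gene.
Kcne3 start site 1: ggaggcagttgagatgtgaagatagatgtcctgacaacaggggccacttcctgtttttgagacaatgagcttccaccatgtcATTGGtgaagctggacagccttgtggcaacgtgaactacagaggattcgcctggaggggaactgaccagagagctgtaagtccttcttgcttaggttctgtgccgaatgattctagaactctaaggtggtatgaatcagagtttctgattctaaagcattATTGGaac
Kcne3 start site 2: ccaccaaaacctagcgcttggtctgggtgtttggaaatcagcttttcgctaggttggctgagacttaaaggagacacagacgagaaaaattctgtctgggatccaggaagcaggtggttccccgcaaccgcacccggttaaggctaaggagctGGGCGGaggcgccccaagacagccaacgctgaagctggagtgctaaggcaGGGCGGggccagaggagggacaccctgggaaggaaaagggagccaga
Kcnk5: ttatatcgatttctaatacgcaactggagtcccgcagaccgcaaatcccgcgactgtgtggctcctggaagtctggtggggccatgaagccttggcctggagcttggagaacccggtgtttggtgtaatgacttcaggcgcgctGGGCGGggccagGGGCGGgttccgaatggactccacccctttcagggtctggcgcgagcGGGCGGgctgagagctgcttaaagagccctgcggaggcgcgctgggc
Kcnk1: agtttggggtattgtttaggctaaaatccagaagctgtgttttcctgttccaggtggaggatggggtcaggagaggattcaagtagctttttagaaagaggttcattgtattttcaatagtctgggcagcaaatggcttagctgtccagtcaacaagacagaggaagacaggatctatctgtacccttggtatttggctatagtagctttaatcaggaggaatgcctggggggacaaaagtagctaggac

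The 2 Kcne3 windows differed in composition. The upstream window had 46.8% GC, 3 CG dinucleotides and 2 CCAAT boxes, whereas the downstream window had 58% GC, 10 CG dinucleotides and 2 GC boxes. The Kcnk5 window had 62.8% GC and 3 GC boxes, and the Kcnk1 window had 44.4% GC and no match to either motif. Of all 32851 RefSeq windows of this length, 32.7% held a GC box and 33.8% a CCAAT box, and the median GC content was 52.4%. A TATA box (TATAAA, in 12.4% of all windows) and the core motif of estrogen-related receptors (AAGGTCA, in 4.08%) were also searched on both strands and had no match in the 4 windows. RefSeq windows were found for 36 of the 51 members. A match is a string of letters and was not tested as a binding site, and the gene table does not tell the 2 start sites apart.

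Between 20125106 and 41835978 fragments were counted per library, of which 11957 to 29396 fell on the members. Usp22 had 3500 to 5380 normalized counts in the WT mice and 74948 to 144288 in the OE/OE mice, and each library thus carried the Usp22 level of its label. All 10 epithelial markers were detected, with Krt8 at 6336 TPM and Epcam at 2050 TPM on average. The preparations also held RNA of other cells: Col1a1 of fibroblasts had a mean of 365 TPM, Cdh5 of endothelium 231 TPM and Rgs5 of pericytes 158 TPM. In such bulk samples fewer cells of a type and less RNA per cell cannot be told apart. The OE/OE mouse of pair 4 stood apart, with the highest proliferation score of the 14 mice. It had the lowest fibroblast, adipocyte, endothelial, mural, Schwann cell, macrophage and skeletal muscle marker scores. Its score of the hormone-sensing luminal markers, an epithelial list, was the lowest too, at 12.18, with 12.28 in the OE/OE mouse of pair 3 as the next.

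Levels were compared between genes per exon length, as normalized counts per kilobase scaled to the same total in each library (transcripts per 1000000, TPM). The annotation has 93 protein-coding Kcn genes, of which 42 were not analysed here. The 51 members were 20 of 40 Kv pore genes, 8 of 16 accessory genes, 7 of 8 calcium- or sodium-activated, 8 of 15 inward-rectifier and 8 of 14 two-pore genes. None was at 0 in any mouse, and 6 had a mean of at least 10 TPM, 37 of at least 1 TPM and 14 less than 1 TPM. The 2 highest genes were enough for 50% of the summed TPM of the members, and the 10 highest for 80%.

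Two-pore channels, which leak potassium at rest, led the levels with 57.5% of the summed TPM. Kcnk5, a background channel sensitive to outside pH, had a mean of 165 ± 35.3 TPM (SD, n = 14) and a range from 117.5 to 264 TPM. Kcnk1, a weakly conducting channel of epithelia and endosomes, followed with 107 ± 14.2 TPM. Kcnk5 was above Kcnk1 in 14 of 14 mice, and Kcnk1 was above the third gene, Kcnh1, in 14 of 14. Kcnk16, a channel opened by alkaline pH and known from pancreatic islets, lies near Kcnk5 on chromosome 14 and had 9.73 ± 7.76 TPM. Kcnk3, an acid-sensitive background channel, had 2.79 ± 1.04 TPM, and Kcnk7, which has not been shown to carry current by itself, had 1.75 ± 0.612 TPM.

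Kv pore genes gave 19.5% of the summed TPM. Kcnh1, an ether-à-go-go channel, had 35.3 ± 17.9 TPM (n = 14), and Kcns3, a silent subunit that joins other Kv pores, had 11.4 ± 4.13 TPM. The next were Kcna1 with 7.39 ± 4.47 TPM, a channel of myelinated axons, and Kcnh2 with 6.77 ± 1.51 TPM, the cardiac repolarising channel. Among accessory genes Kcne4, a sister of Kcne3 that inhibits several Kv pores, had the highest level, 31.6 ± 12.6 TPM. It did not differ from Kcnh1 in order, since each was the higher of the pair in 7 of 14 mice. Kcnmb1, the subunit of the large-conductance calcium-activated channel in smooth muscle, had 9.66 ± 2.80 TPM, and Kcnip3, a calcium-binding partner of Kv pores, had 8.86 ± 3.62 TPM.

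Kcnn4, the intermediate-conductance calcium-activated channel, led its class with 19.5 ± 16.6 TPM and had the largest SD relative to its mean among the 5 highest members. Its lowest value was 8.13 TPM and its highest 73.3 TPM, in the OE/OE mouse of pair 4. The pore of the large-conductance channel, Kcnma1, had 2.63 ± 1.27 TPM. Among inward rectifiers Kcnj8 (8.90 ± 3.36 TPM) and Kcnj11 (8.19 ± 3.34 TPM), the 2 pores of ATP-sensitive channels, came first, and they were followed by Kcnj2 (4.48 ± 1.71 TPM) and Kcnj15 (2.75 ± 0.926 TPM). From Kcnh1 down to Kcnh2, neighbours in the order of levels exchanged places among mice. Kcne4 was above Kcnn4 in 12 of 14 mice, Kcnn4 above Kcns3 in 10 and Kcns3 above Kcnk16 in 11. Kcnk16 was above Kcnmb1 in 5 of 14 mice, and Kcnmb1 was above Kcnj8 in 7 of 14.

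**Figure D1:**
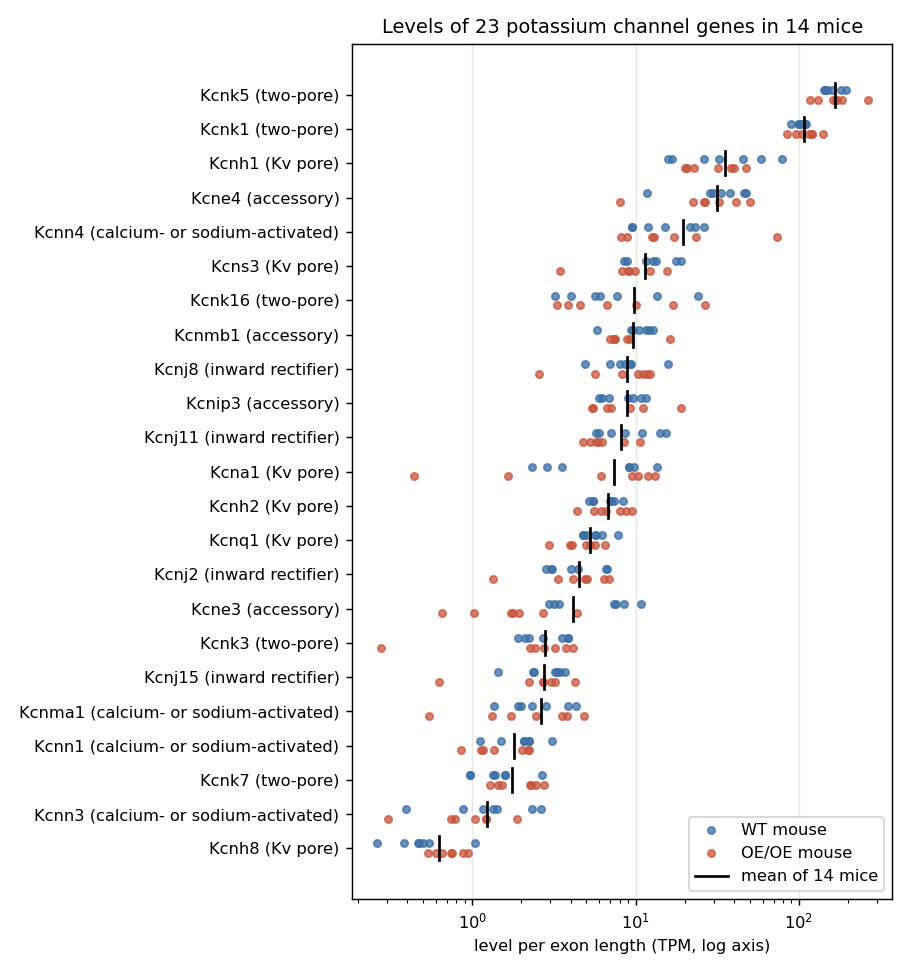
Levels of 23 potassium channel genes on a log axis of TPM, with 1 point per mouse (7 WT above, 7 OE/OE below each line) and a black bar for the mean of 14 mice. Kcnk5 and Kcnk1 lie above the other genes in all 14 mice, and the points of the 2 genotypes overlap for each gene.

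Kcne3 was a low-level gene, in place 20 of 51 with a mean of 6.25 ± 3.09 TPM in WT and 2.03 ± 1.23 TPM in OE/OE (SD, n = 7 each). Its normalized counts in the WT mice of pairs 1, 3, 4, 5, 6, 7 and 8 were 211, 65.8, 71.6, 119.6, 146, 138 and 54.3. In their OE/OE littermates they were 38.1, 39.6, 14.4, 20.50, 52.5, 30.8 and 71.8. The OE/OE mouse was the lower of the pair in 6 of 7 pairs, and in pair 8 it was the higher. The groups overlapped, since the highest OE/OE mouse was above 3 WT mice.

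Within pairs the Kcne3 difference, OE/OE minus WT on the log2(normalized count + 1) scale, was between -2.49 in pair 5 and 0.40 in pair 8, with a mean of -1.58 (SE 0.35). This mean corresponds to 0.334 times the WT level. It was -1.91 without pair 8 and -1.43 without pair 5, the extremes when each pair was left out. Without pair 4, which holds the mouse that stood apart, 5 of 6 pairs were lower. The values rest on 15 to 171 fragments per library, and 9 exon bases overlap the antisense gene Gm34821, whose reads cannot be told apart without strand. Genotype accounted for 57.3% of the spread of Kcne3 over the 14 mice and pairs for 19.9%. The medians over all genes were 1.43% and 73.9%. Because Kcne3 was chosen for its genotype difference in these mice, its shares are a description, from which nothing is read. The adipocyte marker score was lower in OE/OE in 6 of 7 pairs, with a range of 6.60 to 8.34 in WT and 5.56 to 7.73 in OE/OE, and the fibroblast and macrophage scores in 5 of 7. The pan-epithelial score was higher in OE/OE in 6 of 7 pairs, with 14.2 to 14.7 in WT and 14.3 to 14.9 in OE/OE. The part of these cells in the Kcne3 values was not tested. With the adipocyte score in the model the Kcne3 difference was -1.83, with the fibroblast score -1.52 and with the lymphocyte score -1.46.

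The partners of Kcne3 reported here, Kcnq1 and Kcnh2, and its sister Kcne4 did not pass the test at an unadjusted p of 0.05 in limma with the pair as a block, the threshold used throughout. Beside it stands an exact two-sided permutation p, from the 128 ways to flip the signs of the 7 pair differences, which cannot go below 0.0156. Kcnq1, the pore that Kcne3 keeps open in epithelia, had 202 to 406 normalized counts in WT (median 214) and 149 to 323 in OE/OE (median 211). Its difference was -0.22 (SE 0.19, limma p = 0.273, exact permutation p = 0.484) in 7 pairs, with 3 pairs higher and 4 lower, and it was widest in pair 4 at -1.44. Without pair 4 the mean difference was -0.0159. Kcnq1 shares 121 exon bases with the antisense transcript Kcnq1ot1. Because Kcne3 was low in OE/OE, the ratio of Kcnq1 to Kcne3 in TPM had a median of 0.776 in WT (0.578 to 2.46) and 3.04 in OE/OE (1.28 to 4.49), and it was higher in OE/OE in 6 of 7 pairs. This ratio contains Kcne3, so it is a description too.

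Kcnh2, another pore that Kcne3 can join, had 275 to 439 normalized counts in WT (median 329) and 261 to 502 in OE/OE (median 342). Its difference was 0.13 (SE 0.16, limma p = 0.437, exact permutation p = 0.453). Kcne4, the sister subunit, had -0.18 (SE 0.31, limma p = 0.562, exact permutation p = 0.531), with 261 normalized counts in the OE/OE mouse of pair 4 and 1341 in that of pair 7. The groups overlapped for each, and a p above the threshold does not show that these genes were equal between genotypes. With the adipocyte score as covariate the direction turned for Kcnq1 (0.17) and Kcne4 (0.63). Kcne4 then passed the threshold, as did 17% of all genes in that fit. With the fibroblast score as covariate Kcnh2 had 0.40 and passed it too (all genes 2.6%). Kcnc1, Kcnc4, Kcne1, Kcne2 and Kcne5 were not analysed here.

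**Figure D2:**
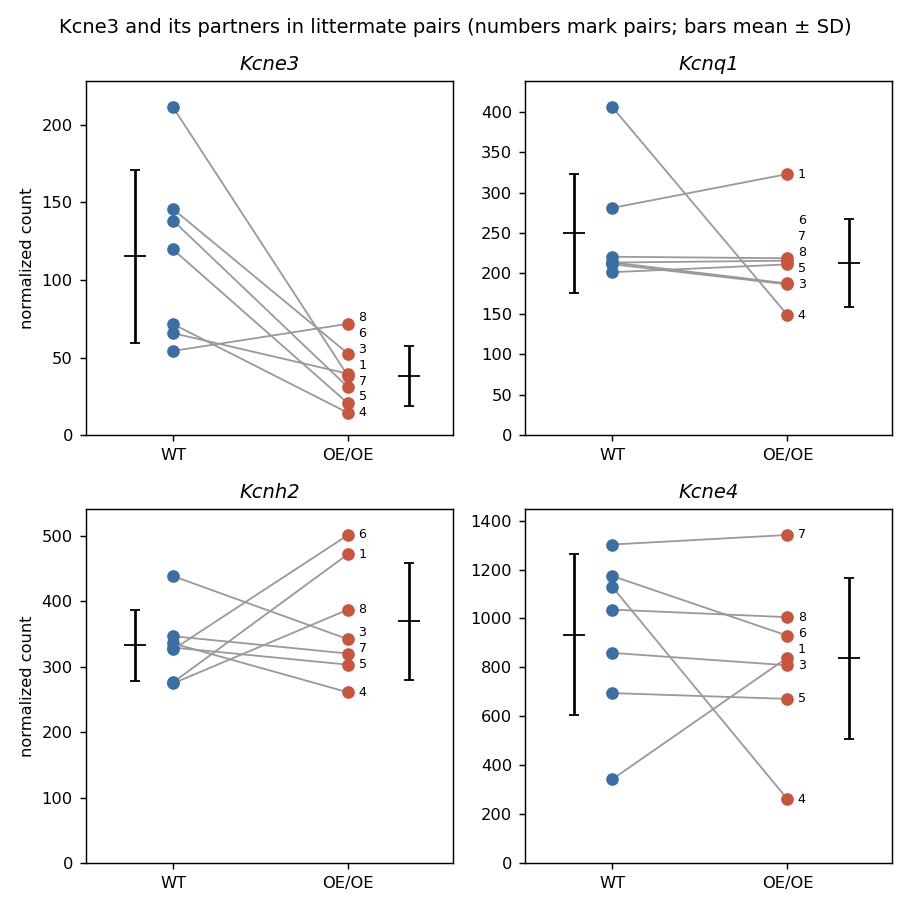
Normalized counts of Kcne3 and 3 related genes in littermate pairs: WT on the left, OE/OE on the right, a line per pair, pair numbers beside the OE/OE points and a black bar for the mean ± SD of 7 mice. The Kcne3 line falls in 6 of 7 pairs, while the lines of the other genes run in both directions.

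Of the 50 members other than Kcne3, 4 (8%) passed the threshold in limma, beside 3.81% of all genes tested. Of these, 3 were higher (all genes 1.95%) and 1 lower (all genes 1.85%) in OE/OE. With Kcne3, which was chosen for its difference in these mice, the count was 5 of 51 (9.80%), from which nothing is read. None of the 50 had an adjusted p under 0.05 in limma (all genes 0.0124%), edgeR or DESeq2. No member had groups that did not overlap (all genes 0.0434%), and 3 moved the same way in 7 of 7 pairs (all genes 1.51%). The median difference was -0.06 in the members and -0.00 in all genes. The members' median was 0.10 without pair 4, 0.24 with the adipocyte score and 0.13 with the fibroblast score as covariate. The count over the 50 depended on single pairs, as did that over all genes. It was 9 (18%, all genes 7.42%) without pair 1 and 7 (14%, all genes 2.99%) without pair 8. It was 2 (4%, all genes 2.36%) without pair 6 and 1 (2%, all genes 3.09%) without pair 7. Without pair 4 it was 5 (10%, all genes 8.47%).

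The 3 members that rose in OE/OE did so in each of the 7 pairs, by small amounts. A gene that moves the same way in 7 of 7 pairs has an exact permutation p of 0.0156 whatever its sizes. For these 3 genes that p thus restates the direction of the pairs and is no second support. Kcnk1 had 1822 to 2787 normalized counts in WT (median 2501) and 2138 to 3151 in OE/OE (median 2595). The groups overlapped, and the pair differences were between 0.05 and 0.30. The mean difference was 0.17 (SE 0.06, limma p = 0.0159, exact permutation p = 0.0156), or 1.13 times the WT level, so a gene with a high level moved little. Kcnk1 has 179 exon bases in common with the antisense gene Gm45875.

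Kcnh8, an ether-à-go-go-like channel known from brain, had 12.2 to 43.5 normalized counts in WT (median 23.3) and 29.7 to 48.5 in OE/OE (median 33.9). The WT mouse of pair 5 was above 6 of the 7 OE/OE mice, and the other 6 WT mice were below all of them. The mean difference was 0.61 (SE 0.22, limma p = 0.0193, exact permutation p = 0.0156). Kcnk7 had 13.98 to 45.8 in WT (median 23.9) and 21.7 to 49.0 in OE/OE (median 38.5), and a mean difference of 0.48 (SE 0.17, limma p = 0.0211, exact permutation p = 0.0156). In pair 7 the Kcnk7 difference was 0.02, and in pair 1 it was 0.75. Both genes are read from few fragments, and both fell below the minimum of 50 normalized counts in the alternative with that filter.

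Kcnn1, a small-conductance calcium-activated channel, was the tested member that fell. It had 65.4 to 135 normalized counts in WT (median 103) and 48.0 to 122 in OE/OE (median 70.1), was lower in 6 of 7 pairs, and had a mean difference of -0.35 (SE 0.14, limma p = 0.0329, exact permutation p = 0.0312). It shares 132 exon bases with an antisense gene. Its sister Kcnn3 lay just beyond the threshold with -0.39 (SE 0.17, limma p = 0.0502, exact permutation p = 0.0625) and was also lower in 6 of 7 pairs. Over the alternatives, Kcnk1 passed the threshold in 13 of 17, Kcnh8 in 13 of 16, Kcnk7 in 12 of 16, Kcnn1 in 10 of 17 and Kcnn3 in 4 of 17, and the direction of each was the same in all of them. With the adipocyte score as covariate none of the 5 passed, and without the block Kcnh8 alone did.

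By class, 1 of 20 Kv pore genes, 2 of 8 two-pore genes, 1 of 7 calcium- or sodium-activated genes none of the 8 inward rectifiers and none of the 7 accessory genes other than Kcne3 passed the threshold, beside 3.81% of all genes. The differences in inward rectifiers were between -0.41 (Kcnj11, limma p = 0.0658, exact permutation p = 0.109, SE 0.20, lower in 6 of 7 pairs) and 0.17. Kcnj11 passed the threshold in DESeq2, with the adipocyte score as covariate, and without pair 4 or pair 8. Kcnj8 and Kcnj2 passed it with the adipocyte score. Of all genes, 17% passed with that score, 3.88% in DESeq2, 8.47% without pair 4 and 2.99% without pair 8. Kcnk5, the member with the highest level, had 0.13 (SE 0.14, limma p = 0.373, exact permutation p = 0.469) and was higher in 4 of 7 pairs. Of the 51 differences, 20 were above 0 and 31 below.

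**Figure D3:**
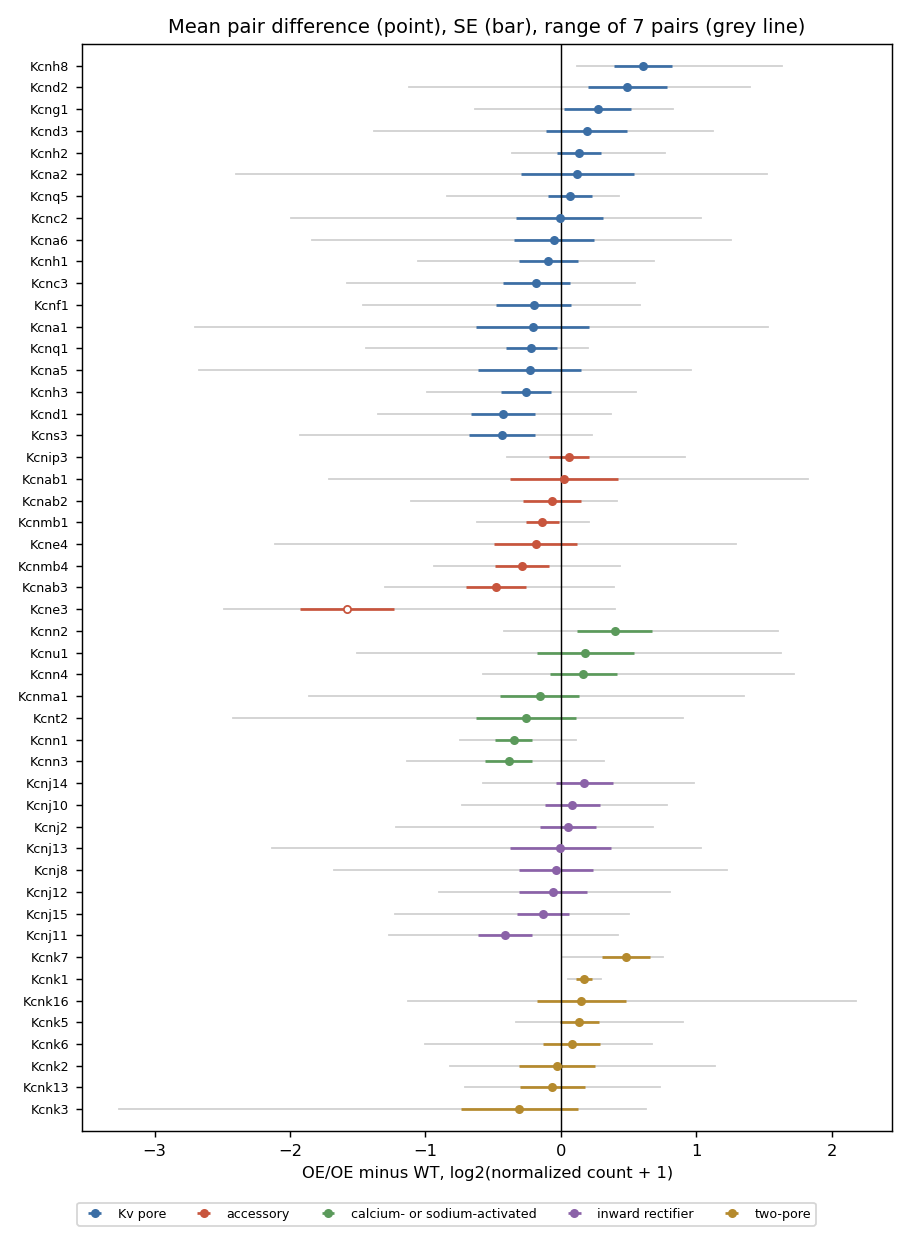
Mean pair difference (OE/OE minus WT, log2(normalized count + 1)) of 49 members by class. The bar is the SE of the limma fit and the grey line the range of the 7 pairs. Kcne3, which is not tested, has an open point. Kcnk1, Kcnk7 and Kcnh8 have a range above 0, and the mean of Kcne3, -1.58, lies farthest from 0.

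The pairs took a median of 61.4% of a member's spread over the 14 mice (all genes 73.9%), and the genotype 1.95% (all genes 1.43%). The pairs have 6 degrees of freedom and the genotype 1, so both shares are read beside those of all genes and not against each other. The share of pairs was largest in Kcnj10, at 87.7%, and it was 82.2% in Kcnn4 and 79.8% in Kcnk1. Kcne3, with 19.9%, had the smallest share, which was chosen after its values were seen.

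In pair 4 the OE/OE mouse held the lowest value of the 14 mice in 29 of 51 members (56.9%, beside 25.3% of all genes). It had the highest value in 3 members (5.88%, beside 27.0% of all genes), Kcnk1, Kcnn4 and Kcnk16. Kcnn4 had 4615 normalized counts there and at most 1465 in the others, and Kcnk16 had 779, with 634 in the WT mouse of pair 1 as the next. Kcnk3 had 13.4 there and at least 69.9 elsewhere, and Kcna1 had 25.9. The endothelial marker score of that mouse was 10.4 (other OE/OE mice up to 12.8, WT 11.6 to 12.4), and the mural score 8.70 (other OE/OE mice up to 10.7, WT 9.77 to 10.7). The part of these cells in the low values was not tested.

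**Figure D4:**
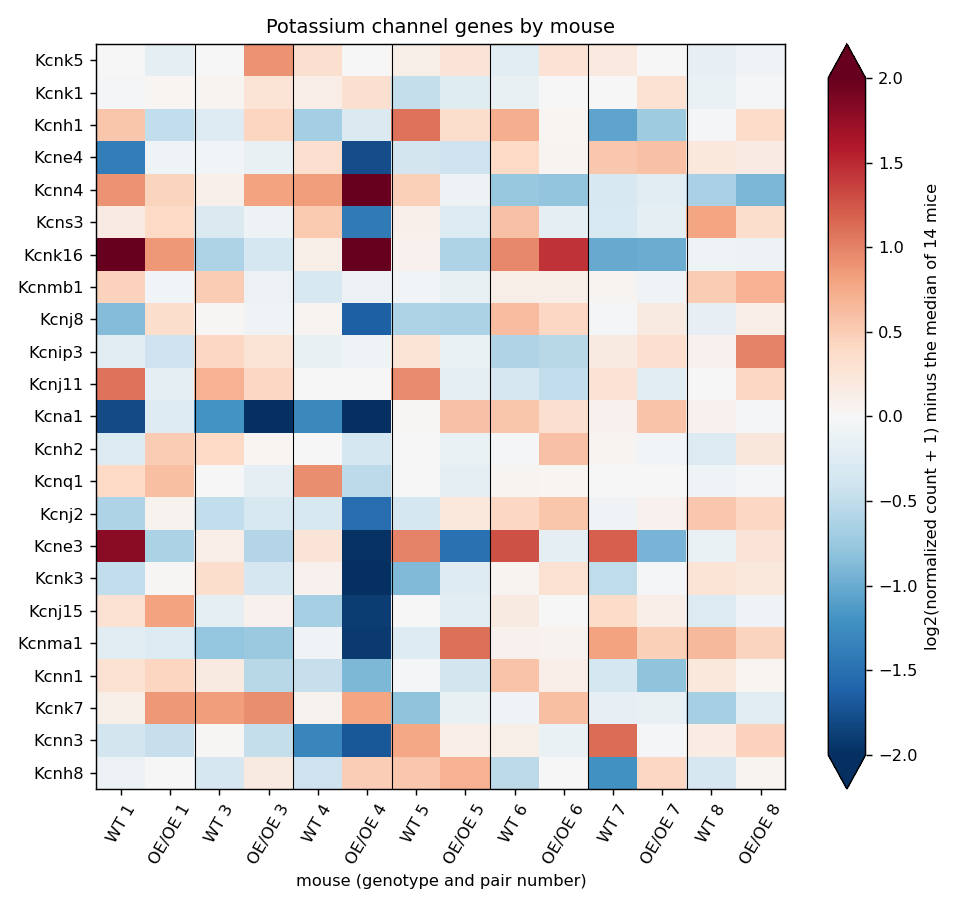
Levels of 23 members by mouse, in littermate pairs, as log2(normalized count + 1) minus the median of the 14 mice (red higher, blue lower, scale ends at -2 and 2). The column of the OE/OE mouse of pair 4 is blue in most rows and dark red for Kcnn4 and Kcnk16, and the Kcne3 row is blue in the OE/OE mice apart from that of pair 8.

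The members were set beside marker scores of other cells, such as mural cells, the pericytes and smooth muscle of vessels, among the mice of each genotype. Each member was correlated with 13 marker list scores in the 7 WT and in the 7 OE/OE mice, 1326 relations in all, and 212 (15.99%) had an unadjusted Pearson p under 0.05 in an exact permutation test. After Benjamini-Hochberg adjustment none did, the smallest being 0.158 for Pearson and 0.263 for Spearman. Of 663 combinations, 20 had r of the same sign and at least 0.8 in size in both genotypes; they involved 10 members, 8 were with the 9 mural markers and 5 with the hormone-sensing luminal markers, Kcna5 and Kcnn4 among these. Kcnj8 also reached this size with the adipocyte, endothelial and Schwann lists. The 3 below were picked from these after their values were seen, and marker scores move together, so a relation does not belong to 1 cell type.

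Kcnj8, the pore of the vascular ATP-sensitive channel, whose partner Abcc9 is among the mural markers, had r = 0.88 in WT and r = 0.96 in OE/OE. In WT rho was 0.64 (exact permutation p = 0.0115 for r and 0.139 for rho, adjusted 0.201 and 0.594, n = 7). In OE/OE rho was 0.93 (exact permutation p = 0.00337 and 0.00675, adjusted 0.172 and 0.271, n = 7). Without the 2 mice farthest from the median score, r was 0.62 in WT and 0.97 in OE/OE.

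Kcna5, a Kv channel of vessel muscle, had r = 0.92 and rho = 0.86 in WT (exact permutation p = 0.00476 and 0.0238, adjusted 0.186 and 0.355, n = 7). In OE/OE it had r = 0.99 and rho = 0.96 (exact permutation p = 0.000595 and 0.00278, adjusted 0.158 and 0.263, n = 7), and r was 0.93 in WT and 0.92 in OE/OE without the 2 farthest mice. Kcnn4 ran the other way, with r = -0.90 and rho = -0.96 in WT (exact permutation p = 0.00714 and 0.00278, adjusted 0.189 and 0.263, n = 7). In OE/OE it had r = -0.92 and rho = -0.71 (exact permutation p = 0.0127 and 0.0881, adjusted 0.202 and 0.519, n = 7). Without the 2 farthest mice r was -0.82 in WT and -0.32 in OE/OE, so the OE/OE relation rests on those mice, that of pair 4 included. The mural score was higher in OE/OE in 4 of 7 pairs.

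**Figure D5:**
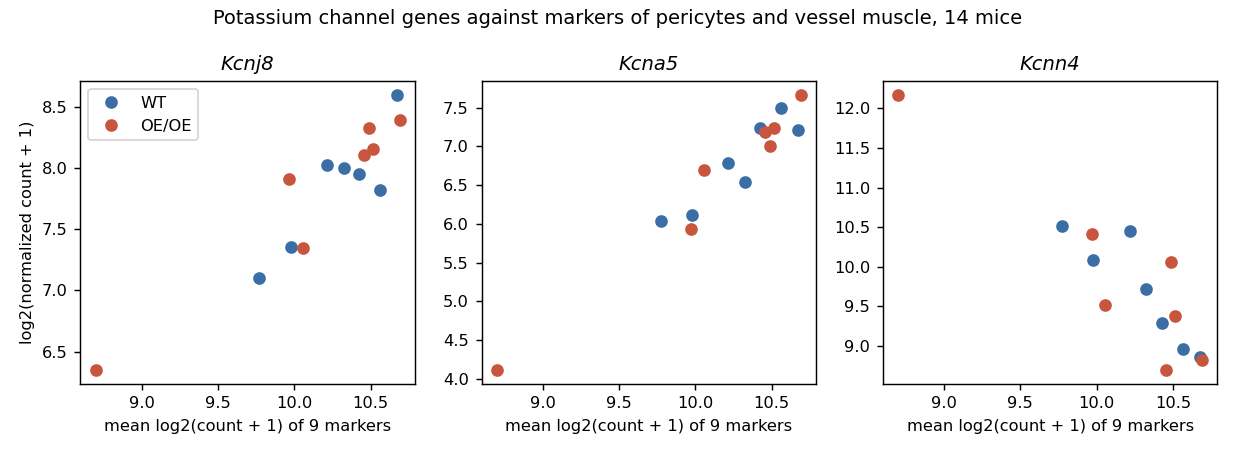
Kcnj8, Kcna5 and Kcnn4 (log2(normalized count + 1)) against the mean log2 level of 9 mural markers, 1 point per mouse, 7 WT and 7 OE/OE. Kcnj8 and Kcna5 rise and Kcnn4 falls along the axis in both genotypes, and the OE/OE mouse of pair 4 lies alone at a score of 8.70.

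The genes that work with potassium channels in fluid and salt transport were read from a list of 24, of which 23 were in the table and Cftr was not analysed here. Slc12a2, the chloride-loading cotransporter, had a mean of 1203 ± 591 TPM (n = 14). In limma 3 of 23 (13.0%, all genes 3.81%) passed the threshold, 2 higher (all genes 1.95%) and 1 lower (all genes 1.85%). Atp1b1, the beta subunit of the sodium pump, rose by 0.30 (SE 0.11, limma p = 0.0236, exact permutation p = 0.0781), and Wnk4, a kinase that controls salt transporters, by 0.33 (SE 0.11, limma p = 0.0163, exact permutation p = 0.0469), each higher in 6 of 7 pairs. Aqp5, a water channel of secretory cells, fell by 0.59 (SE 0.24, limma p = 0.0382, exact permutation p = 0.0938). It was lower in 5 of 7 pairs, most of all in pair 4 (-1.93) and pair 3 (-1.34). No gene of the list passed as lower without pair 3, 4 or 8, with median centring, or with the adipocyte score as covariate. Slc12a2 had -0.60 (SE 0.32, limma p = 0.0919, exact permutation p = 0.141). In the exact test Atp1b1 and Aqp5 missed the threshold. No gene of this list had an adjusted p under 0.05 in limma, edgeR or DESeq2, and without the block none passed the threshold. With the fibroblast score as covariate 0 passed, too.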

How the data were processed

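Per the labels and the methods, the authors made TruSeq mRNA libraries, mapped read pairs to mm10 with TopHat2 2.0.10, counted fragments on GENCODE M21 genes with HTSeq 0.6.0, dropped genes below 10 fragments in all but a few samples (a gene needed 10 in 7 of them), and divided counts by DESeq 1.18.0 size factors. The deposited values are thus a signal, normalized counts that are never negative. The strand setting of the counting is not given in the sources used here. In every library 100% of values were whole multiples of 1 fragment (within 0.05 of a whole number), which gave the depth and the fragments used for edgeR and DESeq2. The mice of a pair are littermates, by the titles' pair numbers and the methods. Deviations from the genotype mean correlated across genes at 0.17 to 0.75 (median 0.52) in the 7 pairs. The 42 other combinations had -0.54 to 0.63 (median -0.15), so the ranges overlapped. Deviations cancel out within a genotype, so the median of the other combinations is not a neutral baseline.

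The whole table was fitted with limma 3.58.1 (R 4.3.3; lmFit, eBayes with trend) on log2(normalized count + 1), which understates the change of low genes, with the pair as a block, an unadjusted p of 0.05 as the threshold and Benjamini-Hochberg adjustment over 16124 genes. An SE given with a difference is that of the limma fit, whose variance is moderated over all genes. It is not the SE of the 7 pair differences alone. edgeR 4.0.16 and DESeq2 1.42.0 were alternatives, and the fit was tested on simulated data. Levels used GENCODE M21 exon lengths; promoter windows came from RefSeq (GRCm38.p6). A marker score is the mean log2(normalized count + 1) of a list. Members and lists were chosen with earlier results of these data known. Genes named are Kcne3 and its partners, the 4 highest of each class, members past the threshold and members that moved the same way in 7 pairs; Kcna5, Kcnj10 and non-channel genes were named after their values were seen. Some genes of the rule are not reported here, although the counts include them.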

Additional observations from a re-analysis of the deposited data

Results flagged for a closer look

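A mouse was set apart where its gap to the nearest of the 7 mice of its genotype divided by the range of those mice on the log2 scale, was above Dixon's 95% critical value. Of 72 groups (23 members and 13 marker scores, in both genotypes), 8 had such a mouse, and chance gives about 1 in 20, or 3.6. The OE/OE mouse of pair 4 accounts for 6 of the 8, all of them low. There Kcne4 had 8.03 (nearest OE/OE mouse 9.39), Kcns3 7.07 (8.20), Kcnj2 6.50 (7.71), Kcnk3 3.85 (6.70) and Kcnj15 5.64 (7.31), and the mural marker score was 8.70 (9.97). The part of mural cells in these low values was not tested. Among WT mice the lymphocyte score peaked in pair 1, at 7.55 (nearest 5.49). The OE/OE mouse of pair 8 had the highest Kcnmb1 value of its genotype, 9.29 (nearest 8.72).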

How the results depend on the processing

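The count of members with an unadjusted p of 0.05 or less, Kcne3 included, was 5 of 51 (all genes 3.81%). Because Kcne3 was chosen for its difference, nothing is read from this count. The count was 3 with a minimum mean of 50 normalized counts (36 members tested, all genes 3.79%) and 2 without the replicate block (all genes 1.13%). It was 14 with the adipocyte score as covariate (2741 of all genes, 17.0%) and 3 with the fibroblast score (all genes 2.60%). When a pair was left out it was 2 to 10, while the share of all genes was 2.36% to 8.47%. The count of ion transport genes was 3 of 23 (all genes 3.81%). It was 0 without the block (all genes 1.13%) and 5 with DESeq2 (all genes 3.88%). With the fibroblast score it was 0 (all genes 2.60%), and with the lymphocyte score 5 (all genes 5.34%). When a pair was left out it was 1 to 6, while the share of all genes was 2.36% to 8.47%. With all pairs the Kcne3 difference stayed below 0, between -1.35 with a pseudocount of 10 and -1.83 with the adipocyte score. Low counts and 7 pairs limit the precision of Kcne3, Kcnh8 and Kcnk7. Of 218 values of the other named members under alternatives that kept all pairs, 179 kept their direction and side of the threshold, and 21 changed direction. None of these had passed the threshold with the design as reported, but with the adipocyte score Kcne4, Kcnk16, Kcnj8 and Kcna1 passed it in the opposite direction. With the adipocyte score the reversed differences were Kcne4 0.63, Kcnn4 -0.37, Kcns3 0.11, Kcnk16 -0.67, Kcnj8 0.65, Kcnip3 -0.0627, Kcna1 0.87, Kcnq1 0.17, Kcnk3 0.67, Kcnj15 0.24, Kcnma1 0.34. With the fibroblast score they were Kcne4 0.33, Kcnn4 -0.16, Kcnk16 -0.32, Kcnj8 0.45, Kcna1 0.46, Kcnq1 0.00914, Kcnk3 0.14, Kcnj15 0.12. With the lymphocyte score they were Kcnh1 0.0106, Kcnj2 -0.00692. The cause was not tested. When a pair was left out, the direction changed for some members, whose values ranged as follows: Kcnh1 -0.22 to 0.0659, Kcne4 -0.43 to 0.14, Kcnn4 -0.0912 to 0.29, Kcnk16 -0.19 to 0.37, Kcnj8 -0.25 to 0.24, Kcnip3 -0.0804 to 0.14, Kcna1 -0.50 to 0.21, Kcnj2 -0.0488 to 0.27, Kcnk3 -0.46 to 0.19, Kcnj15 -0.24 to 0.0520, Kcnma1 -0.41 to 0.13. Of the 14 such changes, 8 came with pair 4 left out.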
